A study of Mus musculus with 5 samples.

Results

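The loci of *Cebpb*, *Cebpa* and *Cebpd*, which encode C/EBPβ, C/EBPα and C/EBPδ, were examined for listed binding sites of the coactivator p300 and the AP-1 subunit c-Jun. Peaks were taken as members when their centre fell in a fixed mm9 window: chromosome 2 from 167.44 to 167.59 Mb for *Cebpb*, chromosome 7 from 35.84 to 35.97 Mb for *Cebpa*, and chromosome 16 from 15.82 to 15.95 Mb for *Cebpd*. Of 83829 peaks in the 4 lists, 42 were members: 20 at *Cebpb*, 17 at *Cebpa* and 5 at *Cebpd*. The loci were selected on their listed peaks, among them the higher number of c-Jun peaks at *Cebpb* with pioglitazone, so the counts below describe the loci and test nothing.

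MS5, a mouse stromal cell line from bone marrow, was used at passage 11 in a study of PPARγ agonists in myelofibrosis, the scarring of bone marrow. All ChIP libraries came from cells given TGF-β1 at 10 ng/mL for 5 h. The p300 and c-Jun libraries with pioglitazone came from cells that also received pioglitazone at 20 ng/mL, and the libraries without it from cells given TGF-β1 alone. Every library thus carries the TGF-β1 stimulus, and no unstimulated library was analysed here. Each antibody and treatment is 1 library, so no difference below could be checked against replicates. There were 21994 p300 peaks with pioglitazone and 31466 without it, and 13325 c-Jun peaks with and 17044 without. Sequencing depth is unknown. Gene expression was not measured, so the stromal identity of the cells could not be checked against marker genes.

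C/EBP proteins are basic leucine zipper transcription factors that bind DNA as dimers. In the adipocyte programme of mouse cells, C/EBPβ and C/EBPδ act early and promote expression of C/EBPα and of PPARγ, the nuclear receptor that pioglitazone activates, and C/EBPα and PPARγ then maintain each other. C/EBPβ is also a mediator of cytokine responses, and C/EBPα is needed for granulocyte formation. p300 is a histone acetyltransferase recruited to active enhancers and promoters. c-Jun is itself a basic leucine zipper protein and binds AP-1 sites as a dimer with Fos, Jun or ATF family members.

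The RefSeq promoters of 2 of the 3 genes were matched, and the 250 bases before the annotated start are shown because AP-1 and CRE-type motifs, which c-Jun dimers are known to bind, can be looked for in them. Coordinates are GRCm38.p6, whereas the peaks are in mm9, so no peak was placed on these promoters. The *Cebpb* stretch is chr2:167688665-167688914 and the *Cebpa* stretch chr7:35119043-35119292, both on the plus strand. Capitals mark TGACG, the core of the cAMP response element (CRE), on either strand:
Cebpb: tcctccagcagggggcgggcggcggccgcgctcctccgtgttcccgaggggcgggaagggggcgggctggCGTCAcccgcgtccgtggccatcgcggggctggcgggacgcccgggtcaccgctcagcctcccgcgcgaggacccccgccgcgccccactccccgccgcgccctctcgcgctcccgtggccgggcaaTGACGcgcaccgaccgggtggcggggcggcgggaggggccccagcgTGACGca
Cebpa: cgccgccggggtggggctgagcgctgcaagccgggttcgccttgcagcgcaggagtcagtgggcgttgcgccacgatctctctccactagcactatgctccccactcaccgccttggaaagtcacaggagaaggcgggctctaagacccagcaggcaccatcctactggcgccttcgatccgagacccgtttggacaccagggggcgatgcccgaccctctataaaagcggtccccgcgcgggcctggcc
The *Cebpb* promoter held TGACG at 3 places, with the first base of the match 180, 53 and 7 bases before the start, the first of them on the minus strand. The *Cebpa* promoter held none. TGACG was found in 17.8% of 32851 promoter stretches of this length. Neither promoter held the AP-1 motif TGANTCA (6.75% of promoters), the full CRE TGACGTCA (1.55%, which contains the core) or the C/EBP motif TTGCNNAA (9.56%), each searched on both strands. GC content was 81.6% at *Cebpb* and 66.4% at *Cebpa*, against a median of 52.4% over all promoters. In RefSeq gene order, *Cebpb* lies between *Tmem189* and *Ptpn1*, *Cebpa* between *Gm45095* and *Slc7a10*, with the family member *Cebpg* next beyond *Gm45095*, and *Cebpd* between *Mzt2* and *Spidr*.

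At *Cebpb*, 5 c-Jun peaks were listed with pioglitazone and 2 without it, while p300 had 5 peaks with pioglitazone and 8 without. No c-Jun peak was shared: all 5 with pioglitazone were gained, meaning that no c-Jun peak of the other list overlapped them by 1 bp or more, and both without pioglitazone were lost. In the whole c-Jun lists 41.6% of peaks with pioglitazone were gained and 54.3% of those without it were lost. The 5 of 5 gained at *Cebpb* carry an exact 95% interval of 47.8 to 100%, for counting error only. These peaks are neighbours in 1 library and helped choose the locus, so the interval is no test against the 41.6%. A rise of at least 3 c-Jun peaks was seen in 83 of 8075 fixed 150 kb tiles that held a c-Jun peak, 1.03%, and this contrast helped choose the locus. The window edges were placed with the peaks in view, and the fixed tile around its middle rose by 2 only. Of the 8075 tiles, 348 rose by 2, 71 by 3 and 12 by 4, and 1805 rose by any number. A fall of at least 3 p300 peaks was seen in 13.4% of 9562 tiles with p300, where the median change was -1.

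**Figure D1:**
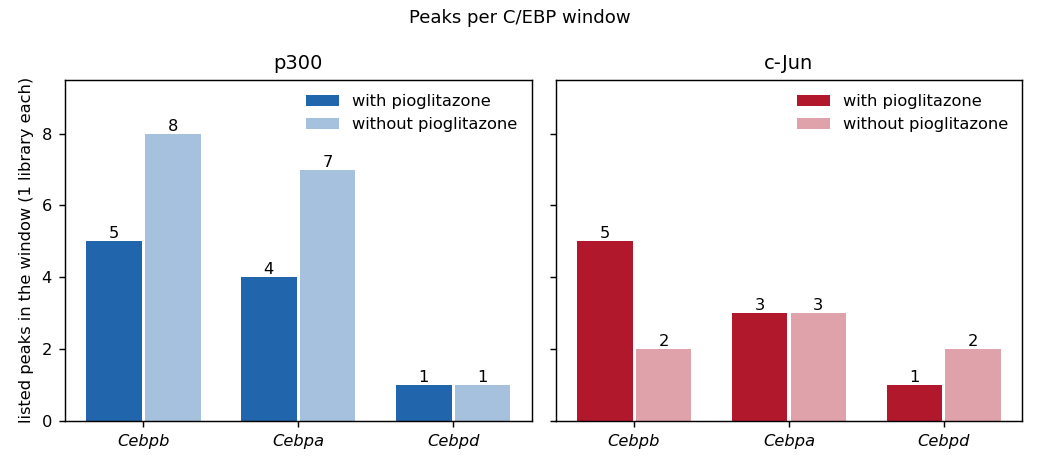
Listed peaks in the Cebpb, Cebpa and Cebpd windows for p300 (left) and c-Jun (right), with pioglitazone (dark bars) and without it (pale bars), 1 library per bar. c-Jun at Cebpb had 5 peaks with pioglitazone and 2 without, and p300 had fewer with pioglitazone at Cebpb and Cebpa.

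The gained c-Jun peaks at *Cebpb* formed a spaced row. They lay on chromosome 2 at 167457513 to 167457747, 167474757 to 167474991, 167486660 to 167486894, 167505525 to 167505759 and 167516475 to 167516709. Neighbouring centres were 10950 to 18865 bp apart, 58962 bp from first to last. The nearest c-Jun peak without pioglitazone was 26726 to 58707 bp away. The second and the fifth stood at rows 1731 and 1732 of 13325, each at 13.0% of the list counted from the top. The other 3 stood lower, in map order, at rows 4948, 8097 and 9688 (37.1, 60.8 and 72.7%). Gained peaks were less common near the top: they made up 15.3% of the 10% step of the list that holds the higher-placed pair, and 34.7, 53.7 and 58.9% of the steps that hold the other 3.

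p300 was listed under the gained c-Jun peaks at 1 place. The second overlapped p300 in both treatments, at row 1470 of 21994 with pioglitazone and row 636 of 31466 without, with centres 92 and 87 bp apart. The other 4 overlapped no p300 peak in either treatment. The fifth had its centre 404 bp from that of a p300 peak listed without pioglitazone only (row 8179), and the nearest p300 peak with pioglitazone was 18495 bp away. Over all 5542 gained c-Jun peaks, 22.4% overlapped p300 in both treatments and 55.9% in neither.

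The lost c-Jun peak that stood highest at *Cebpb* lay at 167543194 to 167543442, row 2184 of 17044 (12.8%). In the step of the list that holds it, 26.2% of peaks were lost. It sat on the highest-placed p300 site of the 3 windows, at 167543237 to 167543463 with pioglitazone (row 202) and 167543225 to 167543471 without (row 319). That p300 site was thus near the top of both lists, at 0.918% and 1.01%, while c-Jun was listed there without pioglitazone only. Across the series, 34.5% of 9261 lost c-Jun peaks overlapped p300 in both treatments. The nearest c-Jun peak with pioglitazone was the fifth gained one, 26726 bp away. The other lost c-Jun peak stood at row 4063 (23.8%) and overlapped no p300 peak. A p300 peak without pioglitazone lay 1242 bp from it.

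**Figure D2:**
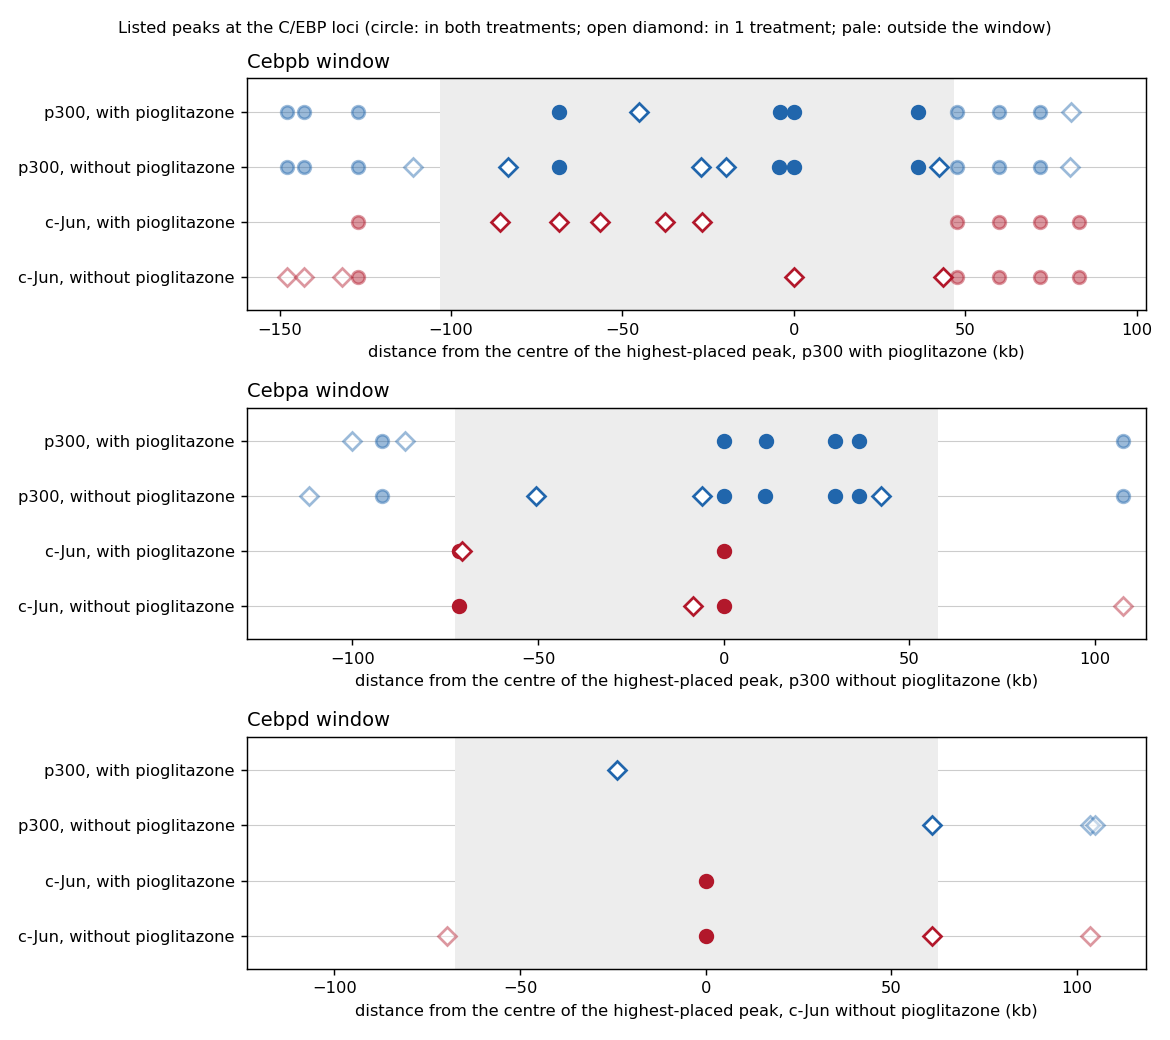
Position of every listed peak at Cebpb, Cebpa and Cebpd in kb from the highest-placed peak of each window, with the list on the vertical axis, the window shaded and peaks within 50 kb outside it pale. Filled circles are peaks listed in both treatments and open diamonds peaks listed in 1. At Cebpb the 5 c-Jun diamonds with pioglitazone lie left of the 2 without it. Of the 5 pale c-Jun peaks with pioglitazone, 4 lie to the right, each overlapping a c-Jun peak without pioglitazone by 1 bp or more.

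Among p300 peaks at *Cebpb*, 4 sites were shared by both treatments, 4 of 8 were lost (48.9% over the whole list) and 1 of 5 was gained (26.9%). The shared sites stood at 6.68, 4.90, 0.918 and 59.9% of the list with pioglitazone and at 2.02, 7.36, 1.01 and 57.6% without it, in map order. Each thus kept its region of the list, top or middle. The lost p300 peak that stood highest lay at 167585537 to 167585783, row 2854 (9.07%), and the closest p300 peak with pioglitazone was 5167 bp from it. The gained one, at 167497984 to 167498210, stood low, at row 15077 (68.6%).

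The difference in c-Jun peaks at *Cebpb* depended on where the window ended. The peaks just inside its right edge were the lost p300 peak at row 2854 and the lost c-Jun peak at row 4063. Just outside, 0.83 to 0.88 kb beyond the edge, p300 and c-Jun were listed in both treatments. Within 50 kb on both sides there were 5 c-Jun peaks with pioglitazone and 8 without it. All 5 with pioglitazone were shared by the rule of 1 bp or more, some of them on the right by their ends only. With these flanks added, c-Jun had 10 peaks with pioglitazone and 10 without, a difference of 0. The flanking c-Jun peaks that were lost lay on the left side only, 3 of 4 there. Of these, 2 stood at 7.77 and 2.01% of the c-Jun list, on p300 sites that were listed in both treatments. The fixed tile around the middle of the window had 6 c-Jun peaks with pioglitazone and 4 without, and 6 and 5 when the tiles were moved by 50% of their width.

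c-Jun at *Cebpb* had no shared peak among the 7 of both lists. Of 349 tiles with at least 2 c-Jun peaks without pioglitazone and at least 5 with it, 1 had no shared peak. The window sat at the lowest value of both limits, and most of the 349 held more than 2 peaks without pioglitazone. Tiles with more peaks have more that could be shared, so the 1 of 349 is no comparison with tiles of the same counts. The fixed tile around the middle of the *Cebpb* window, with 6 c-Jun peaks with pioglitazone and 4 without, is among the 349. That tile held a shared c-Jun peak, 23.91 kb left of the window, so the lack of shared peaks depended on the window edges. Of 1864 tiles with exactly 2 c-Jun peaks without pioglitazone, 9 held at least 5 with it, 0.483%, and the median number with it was 1. The fixed tile around the middle of the window had 4 without it, so it is not among the 1864. A c-Jun rise and a p300 fall of at least 3 each were found together in 17 tiles of 9935 that held either factor. Of the 83 tiles with the c-Jun rise, 50 had fewer p300 peaks with pioglitazone, 22 as many and 11 more. Over all 9562 tiles with p300, 6022 had fewer p300 peaks, 2220 as many and 1320 more, so fewer was the most common there too. The 9562 had to hold a p300 peak and the 83 did not, so the 22 can include tiles without p300. The window was placed with its peaks in view and the tiles were not, so these shares are a description.

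**Figure D3:**
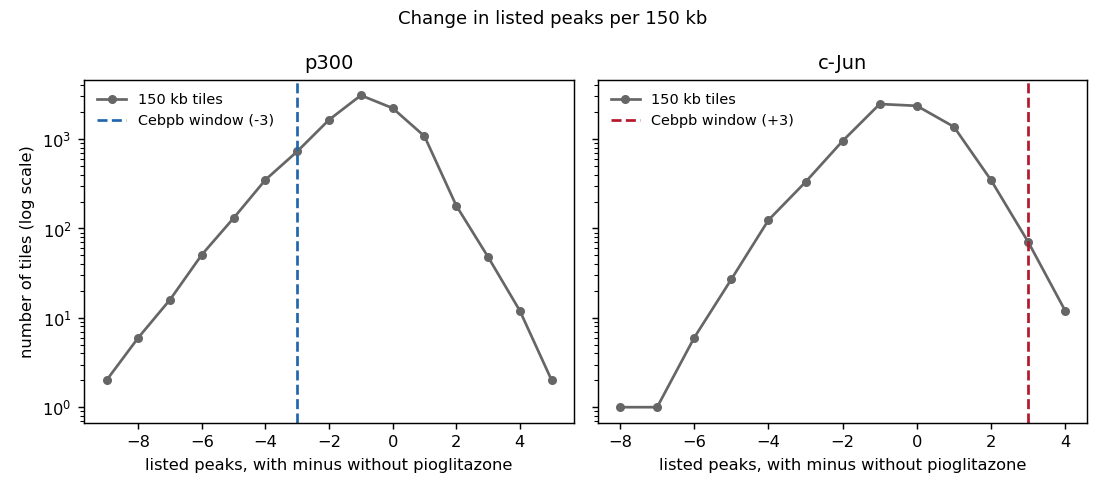
Number of fixed 150 kb tiles (log scale) against the change in listed peaks, with minus without pioglitazone, for p300 (left) and c-Jun (right), among tiles holding a peak of that antibody. The dashed lines mark the Cebpb window at -3 for p300 and 3 for c-Jun, where 71 tiles had a c-Jun change of 3 and 12 a change of 4.

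At *Cebpa*, p300 had 4 peaks with pioglitazone and 7 without it, and c-Jun had 3 in each treatment. A p300 fall of at least 3 occurred in 11.5% of 130 kb tiles with p300, and an equal number of c-Jun peaks in 30.4% of tiles with c-Jun. Equal list lengths were made by keeping the first rows of the longer list, in an order the sources used here do not explain. The p300 difference did not keep its sign at equal list lengths, where p300 had 4 peaks with pioglitazone and 3 without. In the full lists, all 4 p300 peaks with pioglitazone were shared (73.1% over the whole list) and 3 of 7 without it were lost, 42.9%, near the 48.9% of the whole list. At equal list lengths 50% of the 4 with pioglitazone were gained.

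A single *Cebpa* site was in all 4 lists, a pattern held by 12.9% of 44718 merged sites of the series. p300 was listed at 35912129 to 35912355 with pioglitazone, row 1491 of 21994 (6.78%), and at 35912164 to 35912410 without, row 1825 of 31466 (5.80%). c-Jun was listed at 35912141 to 35912375 with pioglitazone, row 3079 of 13325 (23.1%), and at 35912180 to 35912428 without, row 2755 of 17044 (16.2%). The p300 and c-Jun centres were 16 bp apart with pioglitazone and 17 bp without. This was the highest-placed site of the window for both factors in both treatments.

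To its left, the *Cebpa* window held p300 and c-Jun peaks listed without pioglitazone only. The lost p300 peak at 35906337 to 35906583 stood at row 2984 (9.48%), and the closest p300 peak with pioglitazone was 5782 bp from it. The lost c-Jun peak at 35903812 to 35904060 stood at row 9197 (54.0%), and its centre was 2524 bp from that of the lost p300 peak. At the left edge of the window a gained c-Jun peak, at 35841692 to 35841926 and row 6852 (51.4%), lay 848 bp from a c-Jun site listed in both treatments, at 64.1% with pioglitazone and 83.2% without it. The other 5 p300 peaks without pioglitazone stood at 50.2 to 94.9% of the list, and 3 of them were shared. Of these 3, the one at 50.2% without pioglitazone stood at 88.9% with it, in lists of different length (row 19561 with pioglitazone and row 15785 without).

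**Figure D4:**
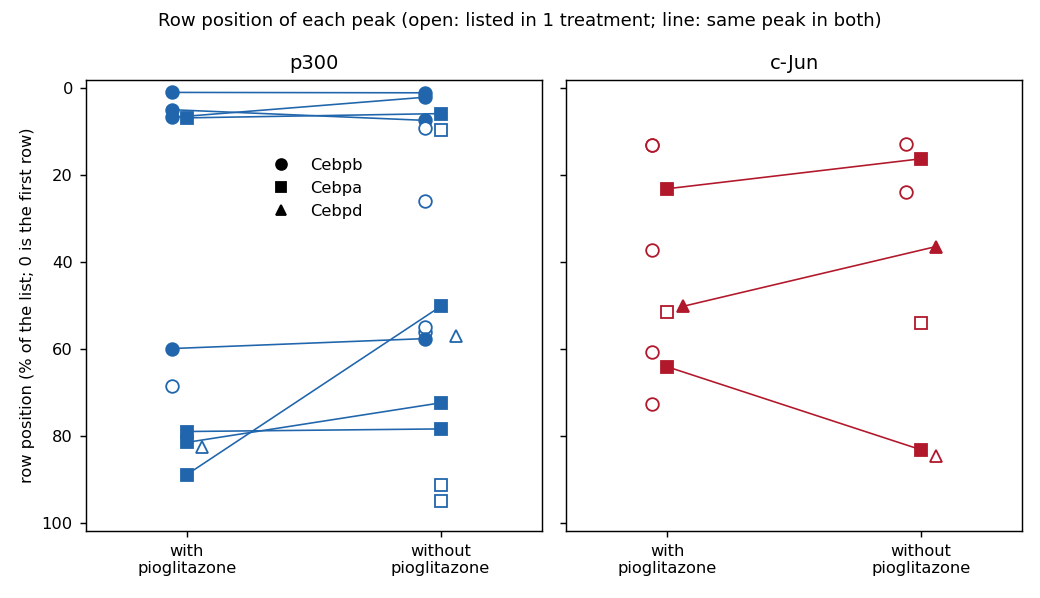
Row position of each member peak as percent of its list, with the first row at the top, for p300 (left) and c-Jun (right), with and without pioglitazone. Lines join the same peak in both treatments, and open symbols are peaks listed in 1 treatment. The 4 p300 sites in the first 10% with pioglitazone are joined to the list without it, and no Cebpb c-Jun peak is joined.

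*Cebpd* had few peaks. p300 had 1 peak with pioglitazone and 1 without, at different places, and c-Jun had 1 with and 2 without. An equal number of p300 peaks was found in 24.4% of 130 kb tiles with p300, and a c-Jun fall of at least 1 in 47.2% of tiles with c-Jun. The shared c-Jun peak lay on chromosome 16 at 15887270 to 15887504 with pioglitazone, row 6684 (50.2%), and at 15887292 to 15887540 without it, row 6197 (36.4%). No p300 peak overlapped it, and the nearest was 23825 bp away with pioglitazone and 61045 bp without. The site 15948338 to 15948584 held p300 (row 17982) without pioglitazone, with c-Jun at 15948365 to 15948613 (row 14426, 84.6%), and neither was listed with it. The p300 peak with pioglitazone was gained, at 15863449 to 15863675 and row 18174 (82.6%). Just outside the left edge of the window, by 2.38 kb, was a c-Jun peak without pioglitazone (row 8988). Outside the window, no peak with pioglitazone lay within 50 kb of either edge.

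Across the 3 loci the 42 peaks formed 27 merged sites, of which 14 held p300 alone, 9 c-Jun alone and 4 both. Over all 44718 merged sites of the series, 49.7% held p300 alone, 16.7% c-Jun alone and 33.5% both, so sites with a single factor were the larger part there too. With pioglitazone, 2 of 9 c-Jun peaks overlapped p300, 22.2% (exact 95% interval 2.81 to 60.0), against 55.5% of the whole list. Without pioglitazone 3 of 7 did, 42.9% (9.90 to 81.6), against 69.4%. Both intervals include the share of the whole list, but with 9 and 7 peaks they are too wide to tell the loci from it. The peaks are not replicates, and no conclusion is drawn. Of p300 peaks, 2 of 10 overlapped c-Jun with pioglitazone (33.7% over the whole list) and 3 of 16 without it (37.6%).

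By place in the lists, p300 members reached higher than c-Jun members. Of 10 p300 peaks with pioglitazone, 4 were in the first 10% of the list, and 6 of 16 without it were. No c-Jun member stood there in either treatment. All 4 such p300 peaks with pioglitazone were shared, where 2.23% of that step of the whole list was gained. Of the 6 without it, 2 were lost, 1 at *Cebpb* and 1 at *Cebpa*, where 3.81% of that first step of the whole list was lost. Both lost peaks stood near the end of that step, at 9.07 and 9.48%, and 12.4% of the next step was lost. Row position is given as a description: the deposited score is 1 for every peak, the sources used here do not say how the rows were ordered, and no peak strength was read from it. Among shared peaks, place in the list with pioglitazone went with place in the list without it (Spearman's rho 0.81 over 16077 p300 peaks and 0.74 over 7783 c-Jun peaks, whose libraries share the cell line).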

How the data were processed

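Peak lists of 4 ChIP-seq libraries, 1 per antibody and treatment, were used. The pooled input was not used here. The submitters' processing notes name HOMER, SAMtools 1.9 and Bowtie2 2.3.4.3, with build mm9. The sources used here give neither their roles nor the peak settings or the handling of duplicates, and a depth difference would move the number of peaks. The deposited score is 1 throughout. Peaks in a list share 1 width, 227 and 247 bp for p300 with and without pioglitazone and 235 and 249 bp for c-Jun.

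Overlaps (1 bp or more between peaks), list steps and tiles were computed in Python 3.11.15 (numpy 2.4.6, pandas 2.3.3, scipy 1.17.1). The overlap and tile counts were checked on copies of the c-Jun list without pioglitazone in which peaks had been moved or removed. Merged sites join overlapping peaks. Tiles start at the first base of each chromosome and count where they hold a peak of the antibody. No test was run, since no group has replicates, and intervals are exact (Clopper-Pearson, 95%), for counting error only. Loci, windows and lists were chosen with earlier results of these data known. Coordinates are given for the highest-placed shared, gained and lost peak per window and antibody and for every gained c-Jun peak at *Cebpb*. No mm9 genome or annotation was used here, so peaks were not placed on exons, introns or promoters.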

Additional observations from a re-analysis of the deposited data

Results flagged for a closer look

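At *Cebpb* the listed peaks of c-Jun and p300 changed in opposite directions with pioglitazone: c-Jun by 3 and p300 by -3, so that the changes differed by 6 peaks. For c-Jun, *Cebpb* and *Cebpd* also went in opposite directions, by 3 and -1, a gap of 4 peaks. Neither difference was tested, since each group is 1 library. In windows 50 kb wider, c-Jun changed by 0 and p300 by -4 at *Cebpb*, and c-Jun by -3 at *Cebpd*. In windows 25 kb narrower, c-Jun changed by 3 and p300 by -1 at *Cebpb*, and c-Jun by 0 at *Cebpd*, so neither pair had opposite signs in the wider windows and only the first did in the narrower ones.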

How the results depend on the processing

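Of 209 alternative values for 45 results, 64 moved and 1 reversed. The other 144 were within 1.5 times the reported count or difference, or, for shares, inside the reported 95% interval. Those intervals are wide with so few peaks: at equal list lengths the share gained at *Cebpa* was 50% for p300, reported as 0%, and 66.7% for c-Jun, reported as 33.3%. No paired analysis was possible because the labels give no replicates, and no library could be left out. Depth is unknown, so a peak missing from a list may be below its threshold. Asking for 50% overlap of both peaks, or centres within 100 or 500 bp, moved no share or site count past its limits. Equal list lengths and the upper 50% of each list both keep first rows, so their results depend on a row order that is not explained. With equal list lengths, p300 at *Cebpa* reversed to a change of 1, with 3 peaks left without pioglitazone. c-Jun then changed by 1 at *Cebpa* and by 0 at *Cebpd*, where 1 peak was left without pioglitazone, with 0% lost and 0% over p300. Tile shares used the changes reported in the full lists, not those the loci had at equal lengths. Tiles with a change at least as large were counted. Where the reported change was 0, for c-Jun at *Cebpa* and p300 at *Cebpd*, tiles with no change were counted instead. For *Cebpb*, *Cebpa* and *Cebpd* the shares were 2.01, 31.5 and 33.4% for c-Jun and 3.43, 2.99 and 32.5% for p300.

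In the upper 50% of each list, c-Jun peaks with and without pioglitazone numbered 3 and 2 at *Cebpb* (a change of 1), 1 and 1 at *Cebpa*, and 0 and 1 at *Cebpd*. p300 peaks numbered 3 and 5, 1 and 2 (a change of -1), and 0 and 0. Merged sites numbered 8, 2 and 1. At *Cebpa* 100% of c-Jun peaks overlapped p300 in both treatments, with 0% gained and 0% lost. At *Cebpd* 100% of c-Jun peaks without pioglitazone were lost and 0% overlapped p300, and at *Cebpb* 0% of p300 peaks were gained. Shares with no peak left were not computed. The changes of the full lists were again the limits (for *Cebpb*, at least 3), and tiles with no change were counted where that change was 0. The tile shares were then 0.348, 34.5 and 44.1% for c-Jun and 6.31, 5.62 and 32.4% for p300.

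With windows 25 kb narrower on each side, *Cebpb* kept 1 c-Jun and 5 p300 peaks without pioglitazone, with changes of 3 for c-Jun and -1 for p300. *Cebpa* had 1 c-Jun peak with pioglitazone and 4 p300 peaks without it, with changes of -1 for both factors. *Cebpd* had 1 c-Jun and 0 p300 peaks without pioglitazone, with changes of 0 and 1. With windows 50 kb wider, *Cebpb* had 10 and 10 c-Jun peaks (a change of 0) and 12 and 16 p300 peaks. *Cebpa* had 8 p300 peaks with pioglitazone, and c-Jun changed by -1. *Cebpd* had 4 c-Jun and 3 p300 peaks without pioglitazone, with changes of -3 and -2. Counting c-Jun peaks within 1000 bp of each other as 1 gave a change of -1 at *Cebpa*. Apart from the windows and list lengths, which change which peaks are counted, the cause of these moves was not tested.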

Other observations

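On the right side of the *Cebpb* window, outside it, the c-Jun peaks of both treatments overlapped by 1 bp or more. Within 50 kb there, c-Jun had 4 peaks with pioglitazone and 4 without, all of them shared by that rule. The outer pairs overlapped only at their ends. They were 167615096 to 167615330 with pioglitazone and 167614891 to 167615139 without, and 167626220 to 167626454 with and 167626411 to 167626659 without. The stricter overlap rules were not applied outside the windows. At 13.1 kb beyond the edge p300 stood at row 85 (0.386%) with pioglitazone and row 394 (1.25%) without. c-Jun stood at the same place at row 910 (6.83%) with pioglitazone and row 439 (2.58%) without. On the left side, p300 sites at rows 412 and 425 with pioglitazone, and at rows 698 and 196 without it, were listed in both treatments. The c-Jun peaks there, at rows 1324 and 343, were listed without pioglitazone only. Beside *Cebpa*, 1 p300 site 19.7 kb left of the window was listed in both treatments, at 6.69% with pioglitazone and 5.94% without it, and no c-Jun peak lay within 50 kb on that side.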
